A study of Homo sapiens with 6 samples.

Results

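The Tribbles genes TRIB1, TRIB2 and TRIB3 encode a small family of pseudokinases, proteins that keep the fold of a protein kinase but have lost most or all of its catalytic activity. The 3 members were taken from the RNA-seq count table of HepG2 cells by their symbols, and they are 3 of 59608 genes in that table. All 3 passed the filter on low counts, as did 19111 genes in all. The family was selected on measured values: TRIB2 was one of the genes that a diagram of the study named from this same comparison combined with ChIP-seq, and TRIB1 and TRIB3 are the rest of its family. The difference of each member between the groups is therefore given as a description, with no test.

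HepG2 is a human hepatoblastoma-derived liver cancer line. All libraries came from HepG2 cells in which endogenous VEZF1, a zinc finger transcription factor, had been targeted with a lentiviral sgRNA. In the VEZF1-WT group the wild-type protein was put back. In the VEZF1-2A group a form was put back in which 2 serines that carry O-GlcNAc were changed to alanine. The comparison thus asks which transcripts differ when VEZF1 carries less of this sugar. The paper also reports a shorter half-life of the mutant protein in another hepatoma line, so the amount of VEZF1 protein may differ as well. Protein was not measured in these libraries. Each group had 3 libraries, and nothing in the labels says that they came from separate cultures, so p-values measure the spread between these libraries, which may be technical. No library of unedited cells was in the series, and reads from endogenous and re-expressed VEZF1 cannot be told apart, so the loss of the endogenous gene could not be checked. Counts scaled to a library of 1000000 (CPM) put VEZF1 itself at 48.3 ± 9.95 CPM with VEZF1-WT and 44.5 ± 5.06 CPM with VEZF1-2A (mean ± SD, n = 3 each), and the groups overlapped.

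Tribbles proteins act as scaffolds. They hold a substrate on the pseudokinase domain and bring in the ubiquitin ligase COP1 through a short tail motif, which leads to the breakdown of transcription factors such as C/EBPα, and they also bind kinases of the MEK family and AKT. In liver, TRIB1 is known for its link to plasma lipids and to C/EBPα-driven lipid synthesis. TRIB2 is known as an oncogene in leukaemia and has been studied as a Wnt-regulated gene in liver cancer cells. TRIB3 is a stress gene, induced by ATF4 and CHOP, and is best known as an inhibitor of AKT in insulin signalling.

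The libraries held 28756765 to 57199396 counts. Hepatocyte markers summed to 8575 to 11210 CPM with VEZF1-WT and 8173 to 10841 CPM in VEZF1-2A, and the 3 leukocyte markers to 112 to 172 CPM and 117 to 185 CPM. Nearly all of that sum was CD68, a lysosomal protein, while PTPRC and CD3E, the defining leukocyte genes, were at or near 0 in 6 of 6 libraries. VEZF1-WT-3 and VEZF1-2A-3 stood apart from the other libraries: AFP, the fetal liver protein that HepG2 cells are known to make, was at 3643 and 3482 CPM there and at 1763 to 2065 CPM in the other 4. Because these are bulk samples, fewer cells that express a gene and less RNA per cell cannot be told apart.

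VEZF1 is known to bind runs of G on either strand, and the sequence upstream of TRIB2 is shown for the runs it holds. The 250 bases before the RefSeq start site of TRIB2 (chr2:12716686-12716935, GRCh38.p14, plus strand) held 76.8% G or C, against a median of 58% over 35116 such windows of 27305 genes. They held 5 runs of 5 or more G, counted on both strands, the longest of 10 G. A run of 5 or more was found in 55.3% of all windows, one of 8 or more in 1.77% and one of 10 or more in 0.615%. No share was computed for the number of runs, and these shares are not matched for G and C content. The first 211 bases of this window, chr2:12716686-12716896, are printed here with the runs of 5 or more G or C in capitals, and the last 8 bases lie in the first exon of the count table.
TRIB2: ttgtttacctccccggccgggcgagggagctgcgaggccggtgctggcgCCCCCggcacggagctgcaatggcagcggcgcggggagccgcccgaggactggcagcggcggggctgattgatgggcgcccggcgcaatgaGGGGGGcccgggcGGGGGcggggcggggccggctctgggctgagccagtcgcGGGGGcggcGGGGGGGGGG

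TRIB3 has 3 RefSeq start sites, at positions 381295, 381306 and 381343 of chromosome 20 (GRCh38.p14), and the windows before them held 77.6% to 78.8% G or C. The longest G run in each was 6, a length reached in 17.6% of all windows, and each window held 3 runs. The stretch of 76 bases common to them that lies outside the counted exons, chr20:381170-381245 on the plus strand, is printed with the same use of capitals.
TRIB3: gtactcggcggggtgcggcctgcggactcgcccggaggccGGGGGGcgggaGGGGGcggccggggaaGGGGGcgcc

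The composite element TGATGCAA, which ATF4 and C/EBP proteins bind at stress genes, was searched on both strands. It was in 0.772% of all windows and in no window of TRIB2 or TRIB3. A match or its absence describes only the letters of these windows, and no binding was measured in the libraries used here.

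The proteins of the family are related. In the principal transcripts of GENCODE 29, the coding sequences were 1116, 1029 and 1074 bases long for TRIB1, TRIB2 and TRIB3, which gives proteins of 372, 343 and 358 residues. TRIB1 and TRIB2 shared 61.0% of aligned residues, TRIB1 and TRIB3 46.8%, and TRIB2 and TRIB3 49.6%. The longest stretch of identical bases between the transcripts was 20 for TRIB1 and TRIB2, 15 for TRIB1 and TRIB3 and 13 for TRIB2 and TRIB3. The last of these begins at codon 134 of TRIB2 and codon 141 of TRIB3, and is shown with 15 bases on each side to let a reader see how soon the genes part; capitals mark the 13 shared bases, at chr2:12723375-12723417 and chr20:391402-391444 (GRCh38, plus strand).
TRIB2: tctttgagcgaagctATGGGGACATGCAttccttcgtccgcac
TRIB3: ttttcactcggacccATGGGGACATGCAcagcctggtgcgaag

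All 3 genes lie on the plus strand, and none shares exon positions with another counted gene. TRIB1 was counted from 125430358 to 125438403 on chromosome 8, over 4099 bases of exon. TRIB2 was counted from 12716889 to 12742734 on chromosome 2, over 4588 bases in 4 merged exons, with MIR3125 inside an intron and counted 0 times. TRIB3 was counted from 362835 to 397559 on chromosome 20, over 3030 bases in 9 merged exons.

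TRIB1 was the most abundant member. It had 50.8, 53.8 and 47.4 CPM in the libraries VEZF1-WT-1, VEZF1-WT-2 and VEZF1-WT-3, and 55.8, 54.8 and 44.9 CPM in VEZF1-2A-1, VEZF1-2A-2 and VEZF1-2A-3. The lowest value of each group was in its replicate 3 library, 44.9 and 47.4 CPM against 50.8 to 55.8 CPM in the other 4, and the groups overlapped. The means were 50.7 ± 3.23 CPM (SD, n = 3) and 51.8 ± 5.99 (SD, n = 3). The fitted log2 fold difference, VEZF1-WT over VEZF1-2A, was −0.03 (standard error 0.09), and −0.08 with replicate 3 of both groups left out.

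TRIB2 was the scarcest member, and the only one of the 3 whose groups did not overlap. Over all 19111 genes tested, the groups did not overlap in 7.36%, and 3.86% were lower in every VEZF1-WT library; since TRIB2 was chosen by this contrast, nothing is read from its place among them. Its counts were 44, 18 and 18 with VEZF1-WT and 28, 62 and 40 in VEZF1-2A. Scaled to library size, these were 0.930, 0.505 and 0.319 CPM against 0.961, 1.55 and 1.21 CPM. The highest VEZF1-WT value and the lowest VEZF1-2A value, 0.930 and 0.961 CPM, were nearly equal, and their exact Poisson 95% intervals, 0.675 to 1.25 and 0.638 to 1.39 CPM, overlapped almost wholly. The other 2 VEZF1-WT libraries had intervals of 0.299 to 0.799 and 0.189 to 0.505 CPM. The intervals of VEZF1-2A-2 and VEZF1-2A-3, 1.19 to 1.99 and 0.862 to 1.64 CPM, lay above both. These intervals cover counting error only, and they are no test of a difference, since TRIB2 was chosen by this contrast.

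The group means of TRIB2 were 0.585 ± 0.313 CPM (SD, n = 3) and 1.24 ± 0.295 (SD, n = 3), and the fitted log2 fold difference was −1.10 (standard error 0.38). It was −1.63 without VEZF1-WT-1, −0.77 without VEZF1-WT-3 and −0.80 without replicate 3 of both groups.

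All 6 counts of TRIB2 were even. Counts of 1 to 10 were even for 81.0% to 83.0% of genes in a library, and counts of 11 to 100 for 65.7% to 67.6%, so many low counts go up in steps of 2. With each pair of counts taken as 1, the intervals of VEZF1-WT-1 and VEZF1-2A-1 widened to 0.583 to 1.41 and 0.525 to 1.61 CPM. Those of VEZF1-WT-2 and VEZF1-2A-3 became 0.231 to 0.959 and 0.737 to 1.86 CPM, which overlapped, so their separation was lost. The interval of VEZF1-2A-2, 1.05 to 2.20 CPM, stayed above those of VEZF1-WT-2 and VEZF1-WT-3, the latter 0.146 to 0.606 CPM. That of VEZF1-WT-3 also stayed below that of VEZF1-2A-3. As TRIB2 was chosen by this contrast, these intervals are no test either. Nothing is read from which of them stay apart.

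TRIB3 lay between the others. It had 19.3, 19.4 and 19.9 CPM with VEZF1-WT and 16.0, 22.7 and 16.3 CPM in VEZF1-2A. The VEZF1-WT libraries were close together and fell inside the range of the VEZF1-2A libraries, of which VEZF1-2A-2 was the highest. The means were 19.5 ± 0.330 CPM (SD, n = 3) and 18.3 ± 3.76 (SD, n = 3), with a fitted log2 fold difference of 0.09 (standard error 0.12). It was 0.27 without VEZF1-2A-2 and −0.01 without replicate 3 of both groups.

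**Figure D1:**
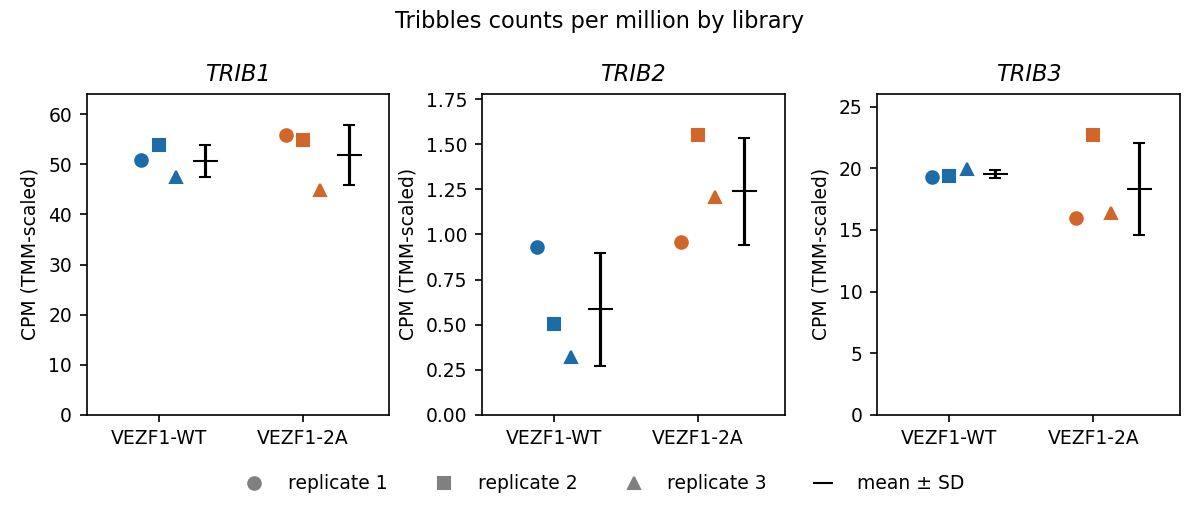
CPM (scaled by TMM, linear axes from 0) of TRIB1, TRIB2 and TRIB3 in each library, with the marker shape giving the replicate number and the black bars the group mean ± SD (n = 3). The groups overlap for TRIB1 and TRIB3, while the highest VEZF1-WT value of TRIB2, 0.930, sits just below its lowest VEZF1-2A value, 0.961.

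Correlations among the members were low. Over the 6 libraries, Pearson's r of log2 CPM was 0.21 for TRIB1 and TRIB2, 0.24 for TRIB1 and TRIB3 and −0.05 for TRIB2 and TRIB3, given as a description without a test since the points share groups and library depth. The spread of log2 CPM within groups was 0.14 for TRIB1, 0.20 for TRIB3 and 0.51 for TRIB2, the member with the fewest counts.

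Levels can be compared between genes only per length. Per kb of exon, TRIB1 was at 12.5 ± 1.06 CPM (SD, n = 6), TRIB3 at 6.25 ± 0.818 (SD, n = 6) and TRIB2 at 0.199 ± 0.0980 (SD, n = 6). TRIB1 was thus above 82.8% of the genes tested, TRIB3 above 70.7% and TRIB2 above 8.67%. The order TRIB1, TRIB3, TRIB2 held in 6 of 6 libraries. TRIB1 was 2.01-fold above TRIB3 (geometric mean, range 1.76 to 2.58), 71.2-fold above TRIB2 (range 39.6 to 166), and TRIB3 was 35.4-fold above TRIB2 (range 20.5 to 94.4). In an exact sign-flip permutation test of the log2 ratios over the 6 libraries, two-sided, each of the 3 pairs gave p = 0.03125, the smallest p this design allows, and 0.03125 after Benjamini-Hochberg adjustment. With the same order in 6 of 6 libraries, this p follows from the number of libraries alone. It measures a spread between libraries that may be technical, and adds nothing to the order itself. With the coding length of GENCODE 29 in place of the exon length, the folds were 2.62, 58.6 and 22.4 and the order was the same. The counted exons reach beyond the coding sequence, so these folds are not levels per counted base. The 3 coding lengths are close to each other, so the folds stay near the ratios of CPM and are no separate check of the order.

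**Figure D2:**
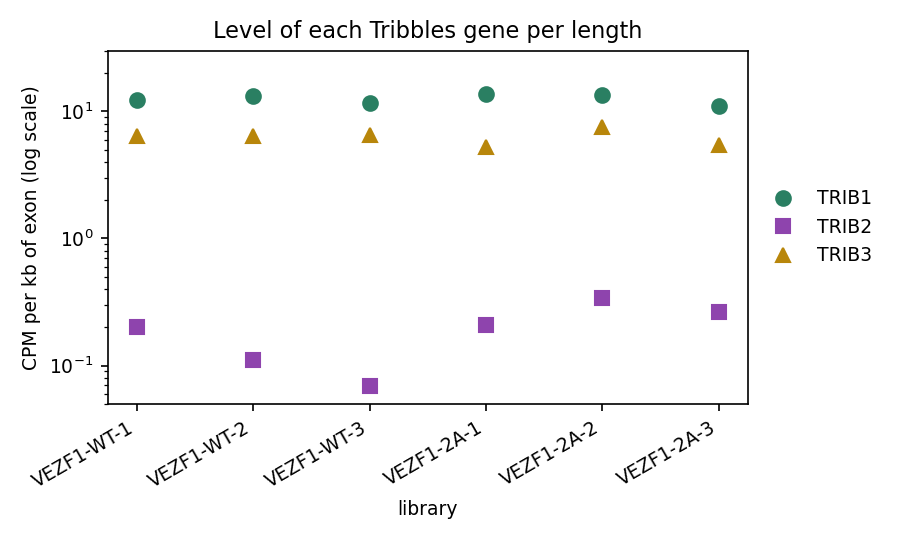
CPM per kb of exon (log scale) of the 3 Tribbles genes in each of the 6 libraries, 1 point per gene and library. TRIB1 lies above TRIB3 and TRIB3 above TRIB2 in 6 of 6 libraries, with TRIB2 between 0.0696 and 0.338.

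TRIB2 made up a small share of the reads counted for the family, not adjusted for length. Of all counts on the 3 genes, it held 1.31% (exact binomial 95% interval 0.953% to 1.75%), 0.686% and 0.472% in the VEZF1-WT libraries, and 1.32% (0.880% to 1.91%), 1.96% and 1.93% in the VEZF1-2A libraries. The share rests on the same TRIB2 counts as its CPM, and shows the same near contact of VEZF1-WT-1 and VEZF1-2A-1. These intervals take each count as separate. They are too narrow if the counts that go up in steps of 2 are pairs.

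**Figure D3:**
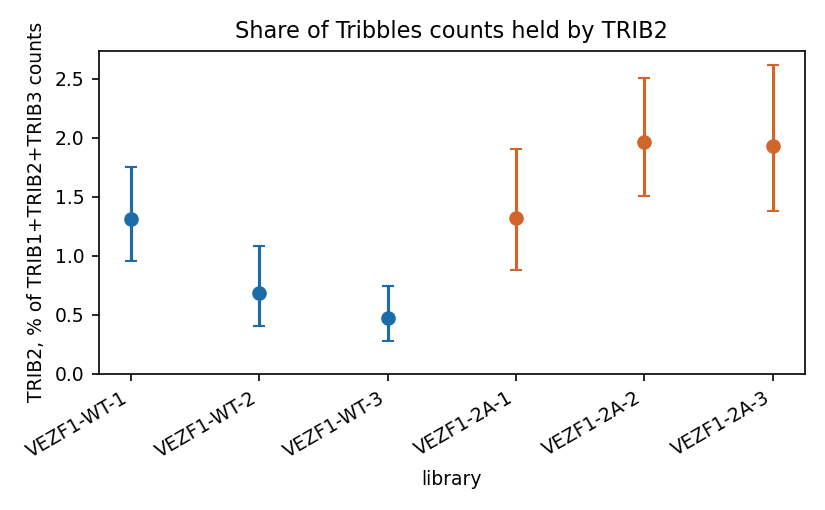
TRIB2 counts as a percentage of the summed counts of TRIB1, TRIB2 and TRIB3 in each library (blue VEZF1-WT, orange VEZF1-2A). The exact binomial 95% intervals cover counting error only and take each count as separate. The shares run from 0.472% to 1.31% in VEZF1-WT and from 1.32% to 1.96% in VEZF1-2A.

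A list of 58 genes of the Tribbles pathways was then examined, from the ligase and its substrates to the ATF4 arm above TRIB3. Of these, 55 passed the filter, and ETV1, CHAC1 and HOXA9 did not. By the quasi-likelihood test of edgeR, adjusted over all genes by the Benjamini-Hochberg method, 0 of the 55 had an adjusted p under 0.05, as for all genes (0% called, smallest adjusted p 0.9996). At an unadjusted p under 0.05 there were 2 of the 55, against 2.13% of all genes, and the groups did not overlap for 5 of the 55, 4 of them lower in VEZF1-WT, against the 7.36% and 3.86% of all genes. The log2 fold differences were above 0 for 28 genes and below 0 for 27, with a median of 0.00, as over all genes. DESeq2 gave 1 of the 55 at an unadjusted p under 0.05 and none after adjustment. Of the genes named next, DDB1, CEBPA, MAP2K7, SQSTM1, DDIT4, TCF7L2 and APOB share 105 to 1582 bases of exon with a gene on the opposite strand, and reads there cannot be assigned without a strand setting.

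The COP1 ligase, which carries out the ubiquitination for which Tribbles proteins are scaffolds, had all 6 of its genes above the filter. COP1 was at 28.5 ± 1.31 CPM with VEZF1-WT and 27.8 ± 0.535 CPM with VEZF1-2A (mean ± SD, n = 3 each), and DDB1, the adaptor of the cullin complex and the most abundant of the 6 genes, at 250 ± 9.30 and 246 ± 8.0 CPM. DET1, the partner that joins COP1 to DDB1, was at 1.20, 1.21 and 1.12 CPM with VEZF1-WT and 1.92, 1.40 and 1.63 CPM in VEZF1-2A. Its groups did not overlap, with a log2 fold difference of −0.48 (SE 0.21) and an unadjusted p of 0.0417 (adjusted p = 0.9996, edgeR). DET1 shares 2464 bases of exon with AC013489.1 on the same strand, so its count is uncertain.

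The transcription factors and enzymes that Tribbles proteins or COP1 turn over gave 0 of 9 tested genes at an unadjusted p under 0.05. In 0 of 9 were the groups apart. The shares over all genes were 2.13% and 7.36%, so nothing is read from these counts in so short a list. CEBPA, the best known substrate of TRIB1 and TRIB2, was at 15.7 ± 0.831 CPM with VEZF1-WT and 17.0 ± 0.767 CPM with VEZF1-2A (mean ± SD, n = 3 each). JUN, a COP1 substrate and the most abundant of them, was at 112 ± 13.8 and 115 ± 13.3 CPM. CEBPD, a further C/EBP factor, had the smallest unadjusted p, 0.0575 (adjusted p = 0.9996, edgeR), with a log2 fold difference of −0.40. These are transcript levels, and turnover of the proteins was not measured.

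The next list held the kinases that Tribbles proteins bind, with SQSTM1 and the FOXO factors. None of 10 genes reached an unadjusted p of 0.05, against 2.13% of all genes, so nothing is read from this count. The log2 fold differences ran from −0.10 to 0.08. SQSTM1, the autophagy receptor that TRIB3 binds, was the most abundant at 208 ± 20.2 and 212 ± 27.2 CPM. MAP2K7, a kinase upstream of JNK, had the smallest unadjusted p, 0.316, with 22.9 ± 1.28 CPM with VEZF1-WT and 21.6 ± 1.53 CPM with VEZF1-2A (mean ± SD, n = 3 each) (adjusted p = 0.9996, edgeR).

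The ATF4 arm drives TRIB3 under amino acid and ER stress. Of its tested genes, 0 of 12 reached an unadjusted p of 0.05, against 2.13% of all genes, so nothing is read from this count. ATF4 was at 261 ± 20.6 CPM with VEZF1-WT and 259 ± 29.6 CPM with VEZF1-2A (mean ± SD, n = 3 each). DDIT4, an inhibitor of mTORC1 that ATF4 induces, had the smallest unadjusted p, 0.0757 (adjusted p = 0.9996, edgeR), and a log2 fold difference of −0.25. It was at 36.0 and 33.2 CPM in VEZF1-2A-2 and VEZF1-2A-3 and at 23.7 CPM in VEZF1-2A-1, below the 24.5 to 27.3 CPM of VEZF1-WT, so the groups overlapped. In VEZF1-2A-2, the library in which TRIB3 was highest, ASNS, the asparagine synthetase gene and an ATF4 target, was at 18.0 CPM against 7.95 to 10.8 CPM in the other 5 libraries. ASNS shares 2415 bases of exon with AC079781.5 on the same strand, was singled out after its values were seen, and its link to the TRIB3 value was not tested.

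Among the genes that control TRIB2 or its turnover, the groups did not overlap for 3 of 9, and all 3 were lower in VEZF1-WT, against 7.36% of all genes apart and 3.86% apart and lower. CTNNB1 and BTRC were singled out after their values were seen. CTNNB1, which encodes β-catenin, was at 189 ± 0.630 CPM with VEZF1-WT and 193 ± 2.21 CPM with VEZF1-2A (mean ± SD, n = 3 each). TCF7L2, a nuclear partner of β-catenin, was at 25.8 ± 0.949 and 27.7 ± 0.768 CPM, and BTRC, the F-box protein β-TrCP, at 23.8 ± 0.557 and 25.2 ± 0.322 CPM. The log2 fold differences were −0.03, −0.10 and −0.08, and the smallest unadjusted p of this list, that of TCF7L2, was 0.159 (adjusted p = 0.9996, edgeR). None of the 9 thus had an unadjusted p under 0.05, against 2.13% of all genes. Over the 9 tested genes, the log2 fold difference was above 0 for 4 and below 0 for 5, and ran from −0.20 to 0.11.

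The hepatic lipid genes belong to the field where TRIB1 is best known. APOB, the structural protein of the lipoproteins that liver secretes and the most abundant of them, was at 6055 ± 577 CPM with VEZF1-WT and 6178 ± 536 CPM with VEZF1-2A (mean ± SD, n = 3 each). The median log2 fold difference of the 9 genes was 0.09. STK40, a relative of the Tribbles family, was at 103 ± 9.57 CPM with VEZF1-WT and 104 ± 18.3 CPM with VEZF1-2A (mean ± SD, n = 3 each).

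**Figure D4:**
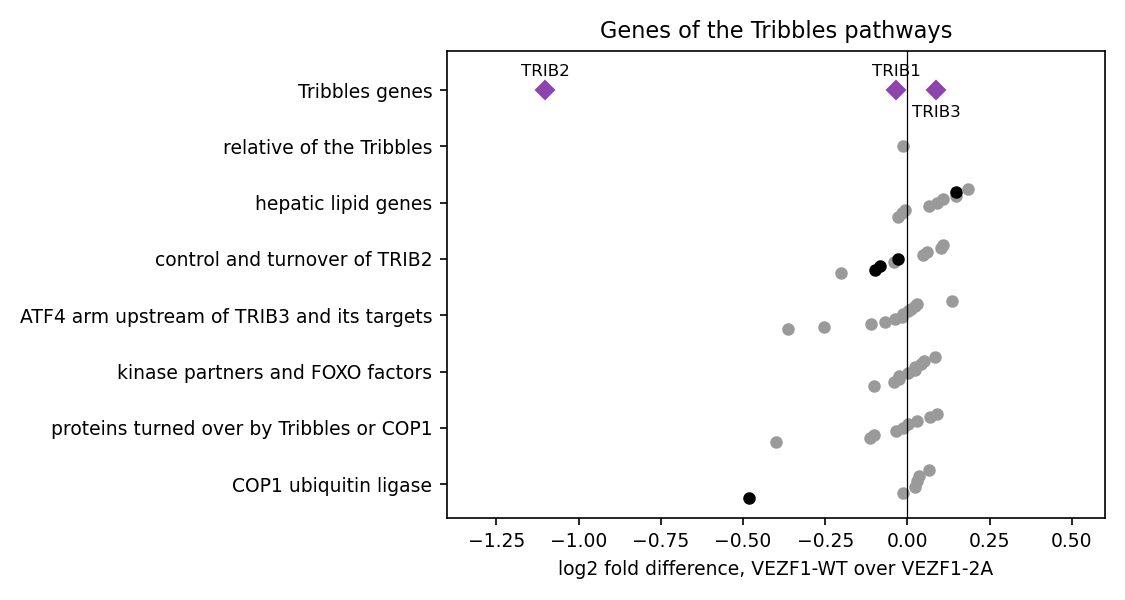
Log2 fold difference, VEZF1-WT over VEZF1-2A, of TRIB1, TRIB2 and TRIB3 (diamonds) and of the tested genes of 7 pathway lists (circles, 1 row per list, spread vertically by order). Black circles are genes whose groups did not overlap. The list genes run from −0.48 to 0.18, and TRIB2, which was chosen by this contrast, is at −1.10.

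The genes around the members were examined over 500 kb on each side. Of 18 tested neighbours, 0 had an adjusted p under 0.05 by edgeR and 1 an unadjusted p under 0.05, and the groups did not overlap for 2, against 2.13% and 7.36% of all genes. None of the 8 genes near TRIB2 could be tested. The nearest outside TRIB2, AC009486.2, lies 332 bases upstream on the opposite strand and had 2 counts over all libraries, and the highest of the 8, MIR3681HG, had 14.

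Near TRIB1, 6 of 16 genes were tested. NSMCE2, a SUMO ligase of the SMC5/6 complex and the nearest tested gene upstream at 63238 bases, had a log2 fold difference of 0.04 (SE 0.07), and LINC00861, the nearest tested downstream at 421318 bases, one of −0.45 (SE 0.68). ZNF572, a zinc finger gene, was at 2.35, 2.30 and 2.01 CPM with VEZF1-WT and 2.88, 2.70 and 2.78 CPM in VEZF1-2A, so that the groups did not overlap (log2 fold difference −0.33, unadjusted p = 0.0560, adjusted p = 0.9996, edgeR). Near TRIB3, 12 of 24 genes were tested. NRSN2, 3175 bases upstream, and RBCK1, a subunit of the linear ubiquitin ligase 9939 bases downstream, had log2 fold differences of −0.07 (SE 0.09) and 0.08 (SE 0.06). The distance of NRSN2 is from the counted start of TRIB3 at 362835, and the RefSeq start sites, at 381295 to 381343, lie farther from it. NSMCE2, LINC00861 and NRSN2 share 141, 130 and 93 bases of exon with a gene on the opposite strand. FAM110A was at 0.190, 0.365 and 0.319 CPM with VEZF1-WT and 0.446, 0.849 and 0.422 CPM in VEZF1-2A, a log2 fold difference of −1.01 (SE 0.42; unadjusted p = 0.0371, adjusted p = 0.9996, edgeR). FAM110A was scarcer than TRIB2, and shares 109 bases of exon with RPS10P5.

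**Figure D5:**
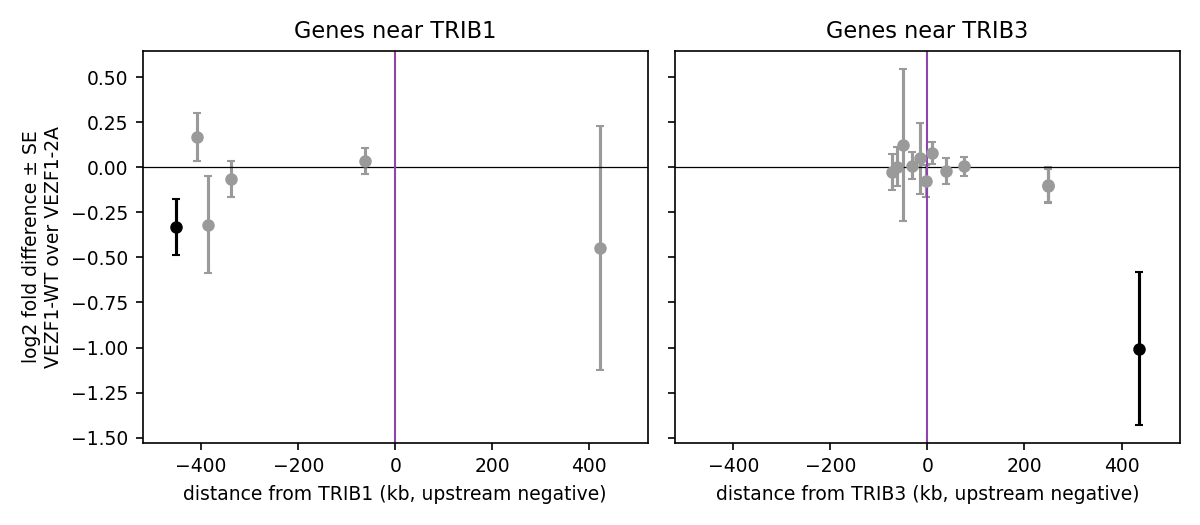
Log2 fold difference ± SE, VEZF1-WT over VEZF1-2A, of the tested genes within 500 kb of TRIB1 (left) and TRIB3 (right) against their distance in kb from the gene, with upstream genes at negative values. Black points are the 2 genes whose groups did not overlap, ZNF572 at −0.33 and FAM110A at −1.01.

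The genes whose pattern over the 6 libraries was most like each member were ranked by Pearson's r of log2 CPM over genes with a mean of 1 CPM or more, as a description without a test. The points are 6 and share library depth and groups, and high values of r were common. TRIB1 had 740 genes with r above 0.9, TRIB3 75 and TRIB2 57. A pattern that a gene named next shares with its member, or mirrors, follows from this ranking and is no separate result. For TRIB2 this includes the difference between the groups by which it was chosen.

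For TRIB1 the most like were ZNF875 (r = 0.99), NEU3, SDF2, KIAA1549 and TNIK, and the most unlike was CDK1 (r = −0.998), the kinase that drives entry into mitosis, followed by RWDD4P2 and TFAP4. CDK1 was at 37.5, 32.8 and 41.7 CPM with VEZF1-WT and 30.7, 32.2 and 46.5 CPM in VEZF1-2A. Its highest value in each group was in replicate 3, where TRIB1 was lowest.

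For TRIB2 the most like were IL17RA (r = 0.99), the receptor of interleukin 17, FOXP1, FBXO30, PACRGL and ZMYND15, and the most unlike were ZC3H12B (r = −0.98), PHB, which encodes prohibitin of the mitochondrial inner membrane, and AL512791.1. IL17RA was at 6.76, 6.09 and 5.84 CPM with VEZF1-WT and 6.79, 7.49 and 7.33 CPM in VEZF1-2A, a smaller difference than that of TRIB2 but with the same near contact of the first libraries. For TRIB3 the most like were ZNF554 (r = 0.99), BCAS4, SLC16A13, ZNF524 and AC239859.5, and the most unlike were FANCL (r = −0.998), a ubiquitin ligase of the Fanconi anaemia pathway, RIOX1 and AC108479.1. FANCL was at 20.6, 20.6 and 20.4 CPM with VEZF1-WT and 22.9, 19.2 and 22.7 CPM in VEZF1-2A, the mirror image of TRIB3.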

How the data were processed

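RNA was extracted with an RNeasy plus kit and libraries were made with a SMARTER mRNA-Seq kit. Raw gene counts were deposited by the authors for 6 libraries, with exon positions on GRCh38, the build in the submitters' processing notes. The aligner, counter, annotation release and strand setting are not given in the sources used here; 68.1% of genes have the start and end of GENCODE 29. ChIP-seq was not analysed here. The 5 broken lines of the count table were left out.

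The members, gene lists and tests were chosen with earlier results of these data known. Genes kept by filterByExpr (minimum count 10, minimum total 15) were scaled by TMM (factors 0.977 to 1.01) and fitted with edgeR 4.0.16 (R 4.3.3), with group as the only term and Benjamini-Hochberg adjustment over 19111 genes. The biological coefficient of variation was 9.71%. CPM are TMM-scaled, and likeness used log2(CPM + 0.1). Alternatives used DESeq2 1.42.0 and limma 3.58.1.

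Besides the members and VEZF1, the genes named were, per list, the most abundant, that with the smallest unadjusted p and any with an unadjusted p under 0.05 and groups that did not overlap; STK40; per member, the nearest tested neighbours, those whose groups did not overlap, and the 5 genes most like and 3 most unlike it. A gene of the pathway lists that this rule names is counted but not reported here. COP1, CEBPA, CTNNB1, BTRC, ASNS and AFP were added after their values were seen. The promoter windows come from RefSeq, which matched 2 of the 3 members. The members' transcripts come from GENCODE 29.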

Additional observations from a re-analysis of the deposited data

How the results depend on the processing

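The alternatives run were other scalings, filters and tools, halved counts, the replicate block and libraries left out. Across them, the log2 fold difference of TRIB2 stayed below 0 in 14 of 14. It ran from −1.63 to −0.77 with libraries left out. TRIB2 was chosen by this contrast and its groups do not overlap, so leaving libraries out could not turn its sign. Nothing is read from the 14 of 14. The log2 fold difference of TRIB1 ran from −0.13 to 0.02 and was above 0 in 3 of 15. That of TRIB3 ran from −0.01 to 0.27 and was below 0 in 2 of 15. TRIB2 has no value under the filter of 1 CPM in 3 libraries, which it does not pass. No pathway or neighbour gene passed an adjusted p of 0.05 in any of the 15. At an unadjusted p under 0.05, the 2 pathway genes became 5 with no filter and 1 with halved counts or DESeq2, and 0 to 6 with libraries left out, while the 1 neighbour gene became 2 with no filter, 0 with the filter of 1 CPM, halved counts or DESeq2, and 0 to 2 with libraries left out. With libraries left out, groups did not overlap for 5 to 18 pathway and 2 to 5 neighbour genes. The highest values came with replicate 3 of both groups removed, an alternative chosen after seeing the data that leaves 2 libraries a group. Fewer libraries part more often without any difference. The share over all genes was not computed for these settings, so these counts cannot be set beside the 7.36%. Groups did not overlap for 1 neighbour gene with halved counts or the filter of 1 CPM. Over all genes, the 0 calls at an adjusted p of 0.05 and the 408 at an unadjusted p became 16 and 896 with no filter, 3 and 219 with DESeq2, and 4 and 833 without replicate 3 of both groups; without VEZF1-2A-3 alone the 408 became 973. The cause was not tested. The level folds per length ran from 1.91 to 2.06 (TRIB1 over TRIB3), 60.1 to 80.0 (TRIB1 over TRIB2) and 29.1 to 39.5 (TRIB3 over TRIB2) with 1 library left out, where 5 libraries cannot bring the exact permutation test under 0.05. The coding length of GENCODE 29 was likewise added after seeing the data; the planned RefSeq protein length was not run.

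With the replicate number as a block, 7 pathway and 2 neighbour genes had an unadjusted p under 0.05 and none an adjusted one, over all genes 6 passed an adjusted p and 825 an unadjusted one, and the log2 fold difference of TRIB2 was −1.14. The numbers were not taken to pair the libraries, since the labels do not say that they mark a shared culture or day. The deviations of same-numbered libraries from their group means correlated at 0.08, 0.15 and 0.38. VEZF1-WT-2 correlated more with VEZF1-2A-1 (0.18) than with its own number. The 2 replicate 3 libraries did deviate together, at 0.38 against −0.29 to −0.11 for the other pairings of VEZF1-2A-3. Deviations within a group sum to 0, so the negative values are partly forced. These correlations cannot show whether the libraries are paired.

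TRIB2 rests on 18 to 62 counts a library, which limits the precision of its values.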
